A study of Mus musculus with 2 samples.

Results

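Cd3d, Cd3e, Cd3g, Cd247, Lck, Zap70, Lat, Cd5 and Themis, 9 of the 32285 gene rows measured in both libraries, encode the signalling part of the T-cell receptor complex and the enzymes and adaptors beside it. They were taken by name, together with the accessible peaks within 50 kb of their transcription start sites, and all 9 rows were found in both libraries. Levels were compared between nuclei with a UMI (1 counted RNA molecule) of the T-lineage genes Bcl11b or Themis, called T-marked here, and nuclei with a UMI of Kit or Il1r1, genes of innate lymphoid cells (ILCs), called Kit/Il1r1-positive. Levels are given in CPM, the gene's UMIs per 1000000 UMIs of the same nuclei, and accessibility in peak CPM, a peak's counts per 1000000 counts in peaks. Nuclei holding both kinds of UMI, or neither, were kept apart, and nuclei with up to 4000 and above 4000 total UMIs were described separately.

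The study measured RNA and chromatin accessibility together in single nuclei of cells sorted as CD4+CD44+CD62L- and negative for CD8a, CD11c, CD45R and F4/80, pooled from colon and small intestine of mice aged 26 to 33 weeks. The knockout library came from CD4creZfp362flox/flox mice, in which Cre recombinase under Cd4 control acts on a floxed gene of the zinc finger protein Zfp362. Controls were Zfp362flox/flox mice, with the same floxed alleles and no Cre. The knockout and control therefore differ in the presence of Cre as well as in Zfp362, and Cd4-driven Cre acts in cells that are or were Cd4-expressing. How many mice each library pools is not clear from the sources used here. Each genotype is 1 library, so there is no test across animals, and all intervals below are 95% intervals that cover counting error only.

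The T-cell receptor recognises peptide on MHC molecules but has almost no cytoplasmic part. It depends on the CD3 delta, epsilon and gamma chains and on the zeta chain (Cd247), whose tyrosine motifs are phosphorylated by the kinase Lck. The kinase Zap70 then docks on these motifs and phosphorylates the membrane adaptor Lat, on which the downstream signalling complex assembles. Cd5 and Themis tune the strength of this signal.

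The start-site windows of 6 promoters are shown because the peaks over them cover both patterns seen at these genes, and they were chosen after the peak values were seen. The Cd3g and Cd3e promoters and the upstream Lck promoter were open mainly in T-marked nuclei, the downstream Lck promoter less selectively, and those of Zap70 and Lat in both classes. Each is the 250 bases before the start site on the gene's own strand, 5′ to 3′, from RefSeq on GRCm38.p6, and capitals mark matches on either strand to 5 motifs. The RUNX motif searched was TGTGGT, the ETS motif was AGGAAG, the TCF/LEF motif was CTTTGA, the E-protein motif was CACCTG and the GATA motif was AGATAA. A match describes letters, not a bound site. The windows are chr9:44980432-44980681 (Cd3g, minus strand), chr9:45009612-45009861 (Cd3e, minus), chr4:129573642-129573891 (upstream Lck, minus), chr4:129558373-129558622 (downstream Lck, minus), chr1:36761548-36761797 (Zap70, plus) and chr7:126369569-126369818 (Lat, minus).
Cd3g: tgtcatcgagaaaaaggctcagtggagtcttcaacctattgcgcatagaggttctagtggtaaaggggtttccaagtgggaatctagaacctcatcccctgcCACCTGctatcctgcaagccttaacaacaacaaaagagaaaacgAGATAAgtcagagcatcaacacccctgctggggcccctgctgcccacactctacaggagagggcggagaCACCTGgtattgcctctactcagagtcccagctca
Cd3e: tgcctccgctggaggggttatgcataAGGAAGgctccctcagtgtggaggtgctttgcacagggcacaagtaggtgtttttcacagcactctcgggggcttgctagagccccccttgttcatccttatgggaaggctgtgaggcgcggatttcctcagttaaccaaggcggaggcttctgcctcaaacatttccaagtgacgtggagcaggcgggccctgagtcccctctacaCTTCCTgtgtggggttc
Lck upstream: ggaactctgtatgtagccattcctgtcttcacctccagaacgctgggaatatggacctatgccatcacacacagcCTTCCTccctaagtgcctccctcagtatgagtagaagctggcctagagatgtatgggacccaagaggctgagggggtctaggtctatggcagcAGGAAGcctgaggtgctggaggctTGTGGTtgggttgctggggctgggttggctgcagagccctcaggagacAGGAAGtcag
Lck downstream: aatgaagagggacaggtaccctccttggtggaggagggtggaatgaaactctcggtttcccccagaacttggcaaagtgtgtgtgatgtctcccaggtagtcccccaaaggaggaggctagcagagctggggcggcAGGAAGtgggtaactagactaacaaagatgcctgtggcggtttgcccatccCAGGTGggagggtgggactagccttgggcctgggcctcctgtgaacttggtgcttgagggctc
Zap70: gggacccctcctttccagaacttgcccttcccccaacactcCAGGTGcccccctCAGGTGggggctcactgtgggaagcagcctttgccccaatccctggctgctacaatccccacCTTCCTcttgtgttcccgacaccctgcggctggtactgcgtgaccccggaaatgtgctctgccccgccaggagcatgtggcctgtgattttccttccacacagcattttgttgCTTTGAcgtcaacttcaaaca
Lat: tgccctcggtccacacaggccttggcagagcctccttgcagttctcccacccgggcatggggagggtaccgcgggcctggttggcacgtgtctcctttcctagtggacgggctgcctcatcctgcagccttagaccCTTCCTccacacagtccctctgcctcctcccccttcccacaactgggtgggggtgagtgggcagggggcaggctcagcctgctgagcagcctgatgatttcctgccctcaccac

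The upstream Lck window held 3 ETS matches and 1 RUNX match, Cd3e 2 ETS matches, and Cd3g 2 E-protein matches and 1 GATA match. Zap70 held 2 E-protein matches, 1 ETS match and 1 TCF/LEF match, the downstream Lck window 1 ETS match and 1 E-protein match, and Lat 1 ETS match. Among 32851 promoter windows of the same length, 29.5% held the ETS motif, 14.0% RUNX, 13.8% TCF/LEF, 17.2% E-protein and 9.99% GATA.

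The knockout library held 2391 barcodes and 9348999 UMIs, and the control library 4223 barcodes and 10803590 UMIs, with 11 barcode sequences present in both. After filtering, 2346 knockout and 4176 control nuclei remained. Of these, 715 knockout and 1629 control nuclei were T-marked with up to 4000 UMIs, and 176 and 175 above 4000. Kit/Il1r1-positive nuclei numbered 570 and 1026 with up to 4000 UMIs, and 58 in either library above 4000. Nuclei with both kinds of UMI were mostly deep: 323 knockout and 237 control nuclei above 4000 UMIs, holding 41.7% and 17.3% of the UMIs of their library. Doublets were not called here, and the part that 2 cells in 1 droplet may have in deep nuclei was not tested. The targeted gene Zfp362 had 15 UMIs (5.30 CPM, 2.96 to 8.74) in knockout T-marked nuclei and 40 (9.26 CPM, 6.62 to 12.6) in control ones. Kit/Il1r1-positive nuclei held 3 UMIs of it (1.98 CPM, 0.41 to 5.77) in the knockout and 21 (8.71 CPM, 5.39 to 13.3) in the control library, so it was lower in the knockout in both classes. Which exons were deleted is not given in the sources used here, so remaining UMIs do not show whether the deletion was complete.

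Of the sorted cells, T-marked nuclei had the higher levels of T-cell markers, and Kit/Il1r1-positive nuclei those of ILC markers. Trac, the constant region of the T-cell receptor alpha chain, had 556 CPM in knockout and 653 in control T-marked nuclei with up to 4000 UMIs. In Kit/Il1r1-positive nuclei it had 58.3 (knockout) and 61.9 (control). Cd4 RNA did not separate the classes in the control library, with 282 CPM in T-marked and 285 in Kit/Il1r1-positive nuclei, whereas it had 845 in T-marked and 289 in Kit/Il1r1-positive nuclei of the knockout library. The 6 T-cell markers that did not choose the nuclei together reached 3812 (knockout) and 3448 (control) CPM in T-marked against 942 and 917 in Kit/Il1r1-positive nuclei with up to 4000 UMIs. At the same depth the 8 ILC markers other than Kit and Il1r1 together reached 3473 and 3533 CPM in Kit/Il1r1-positive nuclei of the knockout and control libraries, against 1086 and 1081 in T-marked nuclei. The 8 myeloid or dendritic markers, MHC class II genes among them, also differed: 3389 (knockout) and 2902 (control) in Kit/Il1r1-positive against 260.3 and 126.8 in T-marked nuclei, with Itgax, the gene of the sorted-out CD11c, at 0 in T-marked and Kit/Il1r1-positive nuclei of both libraries. Above 4000 UMIs the myeloid or dendritic sums were 3215 (knockout) and 1989 (control) in Kit/Il1r1-positive against 260.2 and 302.3 in T-marked nuclei. Their part in the results was not tested.

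The 3 CD3 chains were 8.90 to 14.5 times higher in T-marked than in Kit/Il1r1-positive nuclei with up to 4000 UMIs. Cd3e, the chain shared by both CD3 dimers of the receptor, had 332 CPM (303.7 to 361) in knockout T-marked nuclei and 22.5 (14.8 to 32.7) in knockout Kit/Il1r1-positive ones. In the control library it had 368 (348 to 389) and 28.8 (22.1 to 37.0). The log2 ratio was 3.86 (3.32 to 4.50) in the knockout and 3.66 (3.30 to 4.07) in the control library. Cd3d, the delta chain, had a log2 ratio of 3.54 (knockout) and 3.15 (control), and Cd3g, the gamma chain, 3.47 and 3.37. The 3 genes lie side by side, Cd3g at chr9:44969572-44980431, Cd3d at chr9:44981786-44987339 and Cd3e at chr9:44998740-45009627 (mm10, GENCODE vM21 intervals).

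**Figure D1:**
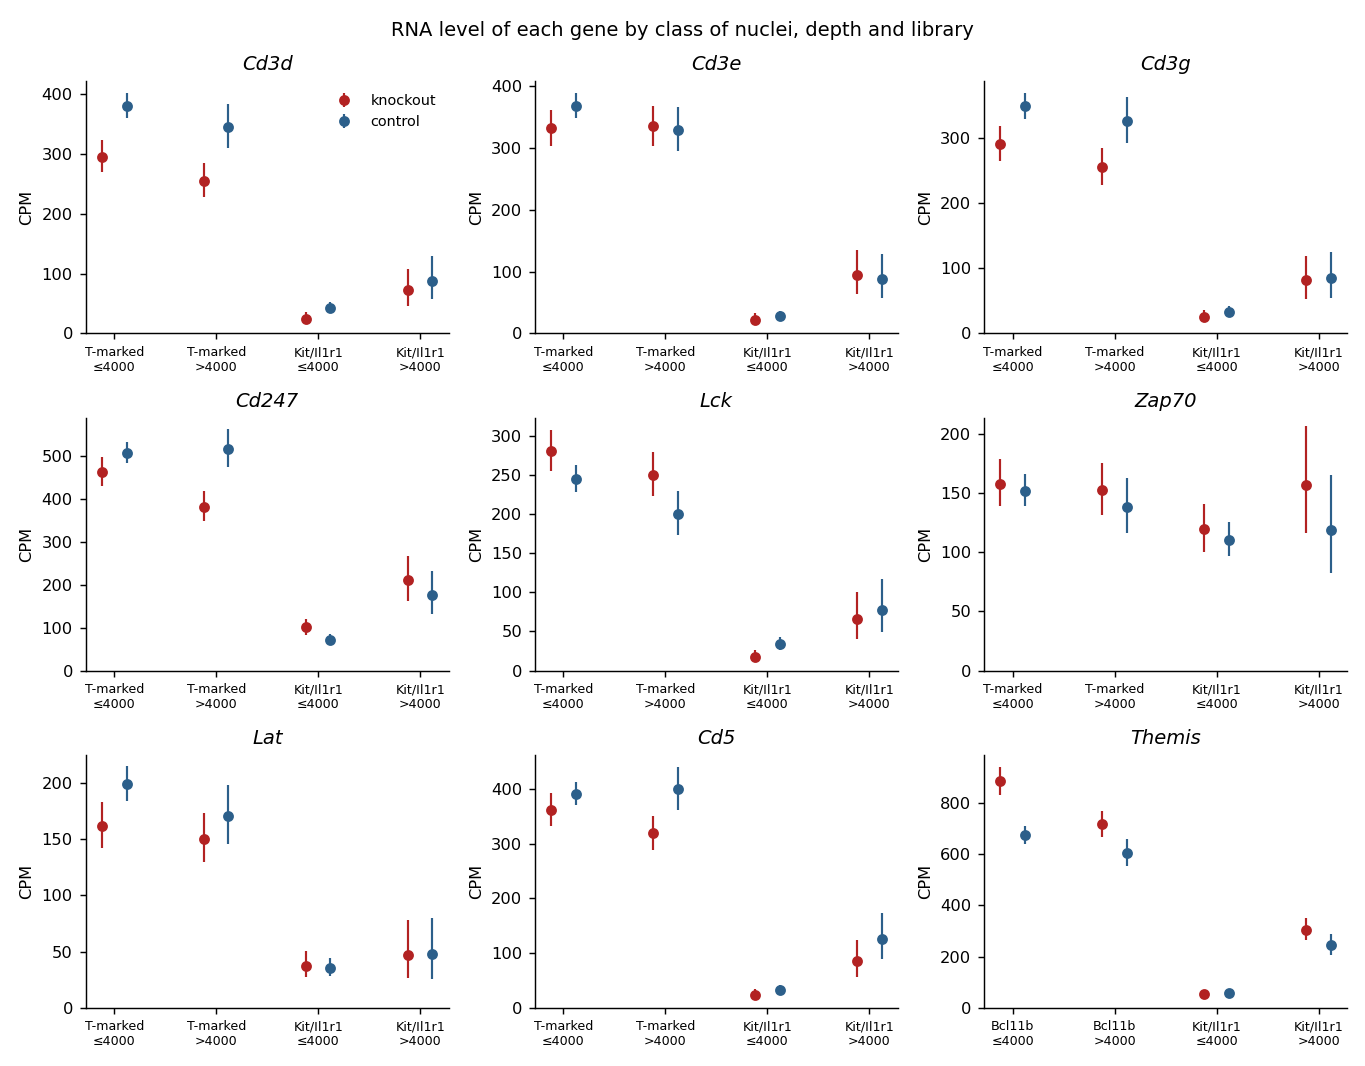
RNA level (CPM, linear axis from 0) of each gene in T-marked and Kit/Il1r1-positive nuclei with up to and above 4000 UMIs, knockout (red) and control (blue); bars are 95% counting intervals of 1 library each, and Themis is shown with classes set by Bcl11b alone. All genes but Zap70 are much lower in the Kit/Il1r1-positive than in the T-marked groups, and less so above 4000 UMIs.

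Cd247, whose zeta chain also serves Fc receptors and natural cytotoxicity receptors in innate cells, lies at chr1:165788681-165877277 and differed less between the classes. It had 463 (430.2 to 498) and 101 (83.7 to 120.5) CPM in knockout T-marked and Kit/Il1r1-positive nuclei, a log2 ratio of 2.20 (1.92 to 2.49). In the control library the values were 507 (483 to 532) and 72.3 (61.3 to 84.8), a log2 ratio of 2.81 (2.57 to 3.06). Its class difference was thus smaller than that of the CD3 chains in both libraries.

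Lck (chr4:129548344-129573641), the kinase that phosphorylates the CD3 and zeta motifs, had 280 CPM (254 to 307) in knockout T-marked nuclei and 17.5 (10.8 to 26.7) in knockout Kit/Il1r1-positive ones. The control values were 245 (228 to 262) and 34.0 (26.6 to 42.9). Its log2 ratio was 3.97 (3.37 to 4.71) in the knockout library, resting on 21 UMIs in the lower class, and 2.84 (2.50 to 3.21) in the control library.

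Zap70 (chr1:36761798-36782818) was the exception. It had 158 (139 to 179) and 119 (100.4 to 140.4) CPM in knockout T-marked and Kit/Il1r1-positive nuclei, and 152 (139 to 166) and 111 (96.9 to 126) in control ones. The log2 ratios of 0.40 (0.10 to 0.71) and 0.46 (0.23 to 0.69) lay below 1.5 times. Syk, the relative of Zap70 that takes its place in B cells and myeloid cells, had no UMI in T-marked nuclei with up to 4000 UMIs and 9 (knockout) and 6 (control) UMIs in Kit/Il1r1-positive ones.

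Lat (chr7:126363824-126369570), the adaptor phosphorylated by Zap70, had 162 (142 to 183) CPM in T-marked against 37.5 (27.4 to 50.2) in Kit/Il1r1-positive nuclei of the knockout library. In the control library it had 199 (184 to 215) in T-marked against 35.5 (27.9 to 44.4) in Kit/Il1r1-positive nuclei. The log2 ratios were 2.09 and 2.48. Cd5 (chr19:10717116-10739002), a surface receptor that dampens receptor signalling, had 361 (332 to 392) in T-marked against 24.2 (16.2 to 34.7) in Kit/Il1r1-positive nuclei of the knockout library. The control values were 391 (370.1 to 413) in T-marked against 33.1 (25.8 to 41.8) in Kit/Il1r1-positive nuclei. Its log2 ratios of 3.88 and 3.55 were close to those of Cd3e.

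Themis (chr10:28668360-28883818), which regulates signalling by the phosphatase Shp1 in thymocytes, helped to choose the T-marked nuclei, so it was described in nuclei chosen by Bcl11b alone. In nuclei with up to 4000 UMIs it had 885 CPM in knockout Bcl11b-marked and 54.6 in knockout Kit/Il1r1-positive nuclei without Bcl11b. The control values were 675 and 58.9, and the log2 ratios 4.01 (3.67 to 4.39) and 3.51 (3.26 to 3.78). A Themis UMI was found in 54.3% of knockout and 50.04% of control Bcl11b-marked nuclei, against 5.94% and 5.35% of Kit/Il1r1-positive nuclei.

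In nuclei with up to 4000 UMIs, 7 of the 8 genes other than Themis were at least 1.5 times higher in T-marked nuclei in both libraries, where 28.3% (knockout) and 26.2% (control) of all measured genes were. None was lower by this rule, where 22.0% and 23.0% of all genes were. The median log2 ratio of the 8 was 3.51 and 2.995, against 0.13 and 0.09 over all genes. Above 4000 UMIs the same count was 7 of 8 against 26.1% and 25.1% of all genes, with medians of 1.71 and 1.73, and none was lower, against 18.3% and 18.0%. Counting the nuclei that hold both kinds of UMI in both classes takes that count to 0 of 8 in either library above 4000 UMIs. These shared nuclei held 3896912 (knockout) and 1866458 (control) UMIs. T-marked nuclei held 1260727 and 1015664, and Kit/Il1r1-positive nuclei 318524 and 295132. Both sums are then mostly the same nuclei, which draws each ratio towards 1, so the count of 0 cannot show whether the genes differ.

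**Figure D2:**
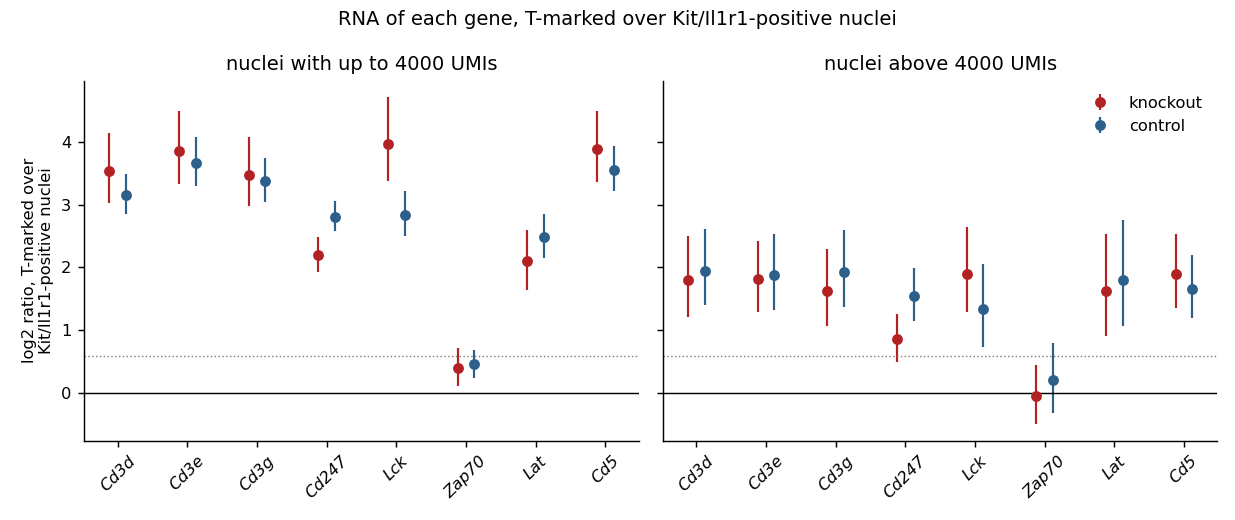
Log2 ratio of CPM, T-marked over Kit/Il1r1-positive nuclei, for 8 genes in the knockout (red) and control (blue) library, with nuclei up to 4000 UMIs on the left and above 4000 on the right; bars are 95% counting intervals and the dotted line is 1.5 times. Zap70 stays below the dotted line in all 4 cases, and all 8 genes sit lower on the right than on the left.

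The class ratio was smaller in deep nuclei for each of the 8 genes in both libraries, and levels in Kit/Il1r1-positive nuclei were higher there for each of the 8. Cd3e had 335 (303.5 to 368) CPM in knockout and 329 (295 to 366) in control T-marked nuclei above 4000 UMIs. Kit/Il1r1-positive nuclei above 4000 UMIs had 94.2 (63.5 to 134) and 88.1 (57.5 to 129). The log2 ratios above 4000 UMIs were 1.81 and 1.87 for Cd3e, 0.85 and 1.54 for Cd247, 1.89 and 1.33 for Lck, and −0.05 and 0.20 for Zap70. Deep nuclei with both kinds of UMI lay between the classes in both libraries for 7 of the 8 genes, for example 207 (knockout) and 215 (control) CPM for Cd3e. Zap70, at 149 and 113 in them, lay below both classes, which had 152 and 138 (T-marked) and 157 and 119 (Kit/Il1r1-positive). Nuclei with neither kind and up to 4000 UMIs, 382 and 827 of them, had 313 and 292 for Cd3e, against 332 and 368 in T-marked nuclei. For Lck they had 202 and 154, against 280 and 245. Each of the 8 genes lay below its T-marked level in both libraries, except Zap70 in the knockout library (163 against 158).

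Per nucleus, the 3 CD3 genes were counted after thinning each nucleus to 1000 UMIs, which left out 23 knockout and 60 control T-marked and 13 and 26 Kit/Il1r1-positive nuclei with up to 4000 UMIs. After thinning, at least 1 was missing in most nuclei of any class: all 3 were found in 2.60% of knockout and 3.51% of control T-marked nuclei with up to 4000 UMIs. None of the 3 was found in 48.1% (44.3 to 51.9) of knockout and 40.1% (37.7 to 42.6) of control T-marked nuclei, against 95.2% (93.0 to 96.8) and 93.6% (91.9 to 95.04) of Kit/Il1r1-positive ones. Without thinning, none was found in 27.4% and 21.5% of T-marked and 91.2% and 88.4% of Kit/Il1r1-positive nuclei. All 3 were then found in 13.6% and 14.2% of T-marked nuclei with up to 4000 UMIs, and in 50.6% and 50.9% above 4000.

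**Figure D3:**
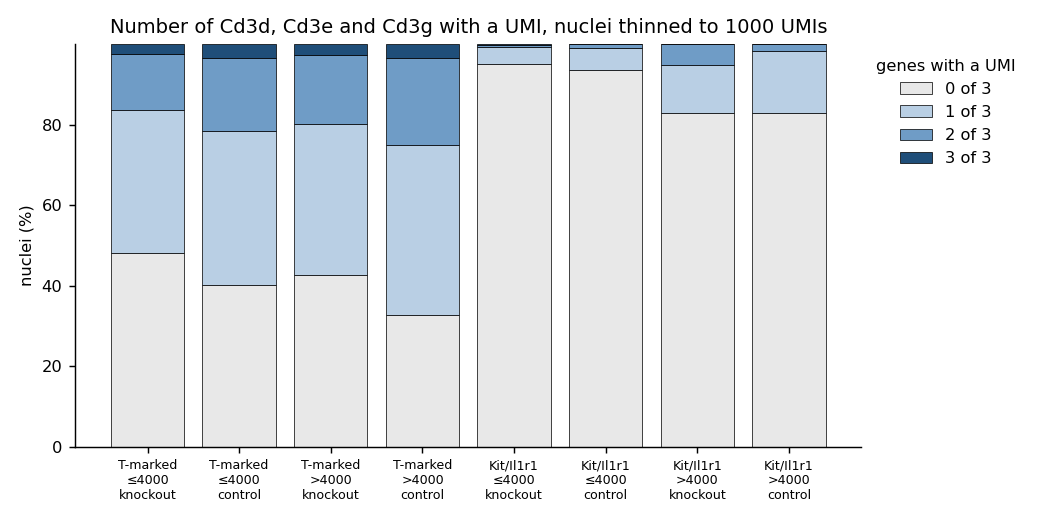
Share of nuclei (%) with a UMI of 0, 1, 2 or 3 of the genes Cd3d, Cd3e and Cd3g after thinning to 1000 UMIs, by class, depth and library, knockout left of control in each pair. The pale segment, nuclei with none, spans 32.6% to 48.1% of T-marked nuclei and 82.8% to 95.2% of Kit/Il1r1-positive ones.

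As a rough gauge of free RNA in droplets, nuclei of other lineages were chosen by B-cell, epithelial, stromal and macrophage genes with no UMI of the class markers. This rule leaves out droplets with a Bcl11b or Themis UMI, as that for Kit/Il1r1-positive nuclei does. The gauge therefore cannot give the full level of free T-cell RNA. The 9 knockout and 16 control nuclei of other lineages above 4000 UMIs (median 5579 and 5946 UMIs) had 0 to 80.8 and 9.03 to 99.3 CPM over the 8 genes, on 0 to 5 and 1 to 11 UMIs per gene. A Cd3e UMI was found in 22.2% and 18.8% of them without thinning, and in 29.3% and 27.6% of Kit/Il1r1-positive nuclei above 4000 UMIs (median 4954 and 4469 UMIs). Cd3e had 80.8 (knockout) and 36.1 (control) CPM in these deep nuclei of other lineages, in the knockout library the highest of the 8 genes. The Cd3e level of Kit/Il1r1-positive nuclei with up to 4000 UMIs, 22.5 (knockout) and 28.8 (control), lay below these values from deeper nuclei. Above 4000 UMIs the Cd3e level of Kit/Il1r1-positive nuclei, 94.2 (63.5 to 134) and 88.1 (57.5 to 129), lay above them, with overlapping counting intervals of 26.2 to 189 and 9.84 to 92.4 for the nuclei of other lineages. Cd3d and Cd3g compared differently in the knockout library. Without thinning, 77.8% of its deep nuclei of other lineages had none of the CD3 genes and 22.2% had 1. Those were the nuclei with Cd3e, so Cd3d and Cd3g had no UMI there. Kit/Il1r1-positive knockout nuclei had 25.0 and 25.8 CPM of them with up to 4000 UMIs and 72.2 and 81.6 above. Whether the CD3 RNA counted in Kit/Il1r1-positive nuclei was made in them was not tested. The 10 and 21 nuclei of other lineages with up to 4000 UMIs had 111 to 557 and 67.9 to 385 CPM and so did not lack these genes.

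Scaled by gene length, which RNA from introns makes only approximate, Cd3d was highest among the 9 in T-marked nuclei with up to 4000 UMIs, at 53.2 (knockout) and 68.6 (control) CPM per kb. Cd3e, Cd3g and Lat followed at 26.8 to 34.7, Cd5 at 16.5 and 17.9, Lck at 11.1 and 9.67, and Zap70 at 7.51 and 7.23. Cd247, 88.6 kb long, was at 5.23 and 5.73, though undivided it had 463 and 507 CPM against 295 and 381 for Cd3d. Neighbours in the order Cd3e, Cd3g and Lat changed places between the libraries.

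Other genes of the pathway mostly followed the same direction. Of 19 measured adaptors, enzymes and coreceptors, 15 (knockout) and 13 (control) were at least 1.5 times higher in T-marked nuclei with up to 4000 UMIs, against 28.3% and 26.2% of all measured genes. In either library 1 was lower, against 22.0% and 23.0% of all genes. Sit1, an adaptor that binds the phosphatase Shp2, and Prkcq, a protein kinase C of the immune synapse, had the highest log2 ratios in the knockout library. These were 4.69 (3.11 to 8.07) and 4.37 (3.45 to 5.68), resting on only 2 and 8 UMIs in Kit/Il1r1-positive nuclei. In the control library Cd6 (4.71), a relative of Cd5, and Trat1 (4.62), a receptor-associated adaptor, were highest, on 34 and 29 UMIs in that class. The lower one was Txk, a Tec-family kinase, with 293 CPM in T-marked against 1072 in Kit/Il1r1-positive nuclei of the knockout library and 233 in T-marked against 883 in Kit/Il1r1-positive nuclei of the control library. Fyn, a second Src-family kinase of T cells, had log2 ratios of 2.60 and 2.49, and Lcp2, the adaptor SLP-76, 1.03 and 0.93. Vav1, a guanine nucleotide exchange factor, had the next lowest values, −0.12 and −0.36. Above 4000 UMIs, 13 (knockout) and 12 (control) of the 19 were higher and 2 lower, against 26.1% and 25.1% higher and 18.3% and 18.0% lower among all genes.

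Among 12 negative regulators, 8 (knockout) and 9 (control) were at least 1.5 times higher with up to 4000 UMIs and 1 was lower, against the same 28.3% and 26.2% higher and 22.0% and 23.0% lower among all genes. Sh2d2a (3.23 and 3.20) and Dgka, a diacylglycerol kinase (2.60 and 2.49), had the highest log2 ratios, and Sla, an adaptor that lowers receptor levels (−0.75 and −0.84), and the phosphatase Ptpn6 (−0.04 and −0.43) the lowest. Of the relatives of the 9 genes outside T cells, 2 were measured and both were lower in T-marked nuclei. Fcer1g, the Fc receptor gamma chain and relative of Cd247, had 9.55 CPM in T-marked against 481 in Kit/Il1r1-positive nuclei of the knockout library and 9.69 in T-marked against 539 in Kit/Il1r1-positive nuclei of the control library. Lyn, an Src-family kinase of B and myeloid cells, had 129 in T-marked against 691 in Kit/Il1r1-positive nuclei (knockout) and 125 in T-marked against 650 in Kit/Il1r1-positive nuclei (control).

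Across 16 groups of nuclei (library, class and depth), 7 of the 9 genes correlated with the mean profile of all 9 at Pearson's r of 0.94 to 0.98. Themis reached 0.77, its level being 0 by choice in 2 of the 4 classes, and Zap70 0.54. The 10 other genes whose profile was most like that mean, of 8051 compared, were Ptprc (r = 0.99), Skap1, Dgka, Dusp10, Fyn, Fyb, Trat1, Aopep, Gm2682 and Agfg1. The mean holds each of the 9 genes itself, and Themis, whose UMIs helped to set the classes. The groups also share libraries and classes, so the values are a description.

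Summed over the loci, peaks near the 9 genes were more often higher than lower in T-marked nuclei, but not at every locus. Within 50 kb of the start sites lay 133 knockout and 130 control peaks, called separately in each library. With up to 4000 UMIs, 57 of 100 measured peaks (knockout) and 71 of 116 (control) were at least 1.5 times higher in T-marked nuclei, where 23.8% and 26.5% of all peaks were. Lower peaks numbered 12 and 9, where 28.8% and 29.9% of all peaks were lower. Above 4000 UMIs, 62.7% and 43.4% of the measured peaks near these genes were higher, against 25.2% and 22.6% of all peaks. Lower ones numbered 4 of 75 and 6 of 53, against 16.7% and 13.5%. These totals include the Themis locus, though Themis RNA helped to choose the T-marked nuclei. All its measured peaks were higher, 6 in either library with up to 4000 UMIs, and 4 (knockout) and 2 (control) above. With up to 4000 UMIs, higher peaks numbered 4 of 17 measured (knockout) and 9 of 19 (control) at the CD3 locus, 7 of 11 and 12 of 16 at Cd247, 5 of 9 and 7 of 16 at Zap70, 11 of 20 and 12 of 22 at Lck, 6 of 11 in either library at Lat, and 18 of 26 and 19 of 26 at Cd5. At the CD3 locus 4 measured peaks were lower in the knockout library, as many as were higher, and 2 in the control library. Many of these peaks had few fragments. With at least 50 fragments, higher peaks numbered 3 of 9 (knockout) and 4 of 11 (control) at CD3, and 1 of 4 and 7 of 11 at Cd247. They numbered 4 of 7 and 4 of 9 at Zap70, and 6 of 14 and 9 of 18 at Lck. At Lat they were 0 of 5 and 3 of 8, and at Cd5 7 of 14 and 9 of 16. Over all loci, 21 of 53 (knockout) and 40 of 77 (control) peaks with at least 50 fragments were higher with up to 4000 UMIs. Above 4000 UMIs 15 of 31 in the knockout and 2 of 16 in the control library, 12.5%, were higher. The share over all peaks was not computed at this limit.

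At the CD3 locus the peak at the Cd3e start site (chr9:45009032-45009941 in the knockout library, chr9:45009025-45009948 in the control) had 29.7 peak CPM in knockout T-marked and 2.09 in knockout Kit/Il1r1-positive nuclei. The control values were 41.4 and 3.14, and the log2 ratios 3.79 and 3.65. The peak between Cd3g and Cd3d, which start within 2 kb of each other and run apart, had 24.4 in T-marked against 3.14 in Kit/Il1r1-positive nuclei (knockout) and 24.7 in T-marked against 1.64 in Kit/Il1r1-positive nuclei (control). Another peak, over the last part of Cd3d (chr9:44986205-44987100 in control), was strong in both classes, with 69.2 in T-marked against 57.4 in Kit/Il1r1-positive nuclei (knockout) and 74.6 in T-marked against 59.6 in Kit/Il1r1-positive nuclei (control). Selective and unselective peaks thus lay inside the same gene cluster.

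Lck has an upstream and a downstream start site 15.3 kb apart, and the peaks at them differed. The upstream one (chr4:129573153-129574119 in control) had 21.4 peak CPM in T-marked against 3.66 in Kit/Il1r1-positive nuclei of the knockout library, and 22.6 in T-marked against 4.78 in Kit/Il1r1-positive nuclei of the control library. The downstream one (chr4:129558141-129559073 in control) had 23.0 in T-marked against 13.4 in Kit/Il1r1-positive nuclei (knockout) and 27.2 in T-marked against 11.1 in Kit/Il1r1-positive nuclei (control), log2 ratios of 0.76 (0.18 to 1.37) and 1.28 (0.78 to 1.83). Between them an intronic peak (chr4:129569780-129570691 in control) had 42.8 in T-marked against 6.45 in Kit/Il1r1-positive nuclei (knockout) and 44.0 in T-marked against 3.82 in Kit/Il1r1-positive nuclei (control). A peak centred 1.74 kb (control) inside the downstream start site went the other way, with 13.6 in T-marked against 24.4 in Kit/Il1r1-positive nuclei (knockout) and 12.3 in T-marked against 23.3 in Kit/Il1r1-positive nuclei (control).

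Zap70 was open at its start site in both classes and past 1.5 times higher in T-marked nuclei. The peak had 45.1 peak CPM in T-marked against 26.3 in Kit/Il1r1-positive nuclei (knockout) and 37.8 in T-marked against 23.5 in Kit/Il1r1-positive nuclei (control), log2 ratios of 0.76 (0.35 to 1.18) and 0.75 (0.38 to 1.13). A peak centred 1.26 kb before it (chr1:36760141-36760931 in control) was lower in T-marked nuclei, with 9.91 against 33.7 in Kit/Il1r1-positive nuclei (knockout) and 11.2 against 27.8 in Kit/Il1r1-positive nuclei (control). A peak in the neighbouring gene 4933424G06Rik, centred 38.5 kb (knockout) and 38.7 kb (control) before it, was higher in T-marked nuclei, with 31.3 against 3.84 in Kit/Il1r1-positive nuclei (knockout) and 38.5 against 5.32 in Kit/Il1r1-positive nuclei (control). Peaks higher in either class thus lay around the Zap70 start site.

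Lat was open at its start site in both classes, with 38.6 peak CPM in T-marked against 30.2 in Kit/Il1r1-positive nuclei (knockout) and 38.2 in T-marked against 32.1 in Kit/Il1r1-positive nuclei (control), while its RNA was 4.27 and 5.58 times higher in T-marked nuclei. This peak also covers an exon of Spns1. A peak inside Lat (chr7:126367328-126368242 in control) had 12.6 in T-marked against 1.74 in Kit/Il1r1-positive nuclei (knockout) and 15.1 in T-marked against 1.64 in Kit/Il1r1-positive nuclei (control). An intergenic peak beyond its end, 11.4 kb from the start site, had 12.4 in T-marked against 0.697 in Kit/Il1r1-positive nuclei (knockout) and 11.6 in T-marked against 0.409 in Kit/Il1r1-positive nuclei (control).

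At its start site Cd5 had 26.0 peak CPM in T-marked against 12.7 in Kit/Il1r1-positive nuclei (knockout) and 32.1 in T-marked against 12.01 in Kit/Il1r1-positive nuclei (control). A peak with many counts lay 24.7 kb upstream (chr19:10763229-10764169 in control), with 77.3 in T-marked against 9.42 in Kit/Il1r1-positive nuclei (knockout) and 79.3 in T-marked against 13.6 in Kit/Il1r1-positive nuclei (control). On the other side, inside the neighbouring gene Vps37c, an intronic peak 37.5 kb from the Cd5 start site was open mainly in Kit/Il1r1-positive nuclei, with 2.12 in T-marked against 39.6 in Kit/Il1r1-positive nuclei (knockout) and 1.51 in T-marked against 41.9 in Kit/Il1r1-positive nuclei (control).

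Cd247 was open 1.45 kb inside its start site, at 27.3 peak CPM in T-marked against 4.88 in Kit/Il1r1-positive nuclei (knockout) and 27.1 in T-marked against 3.55 in Kit/Il1r1-positive nuclei (control). A peak 14.8 kb inside Cd247 had 13.8 in T-marked against 0.349 in Kit/Il1r1-positive nuclei (knockout) and 18.8 in T-marked against 2.05 in Kit/Il1r1-positive nuclei (control). At Themis, all 6 measured peaks in either library were higher in T-marked nuclei; these nuclei were partly chosen by Themis RNA.

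**Figure D4:**
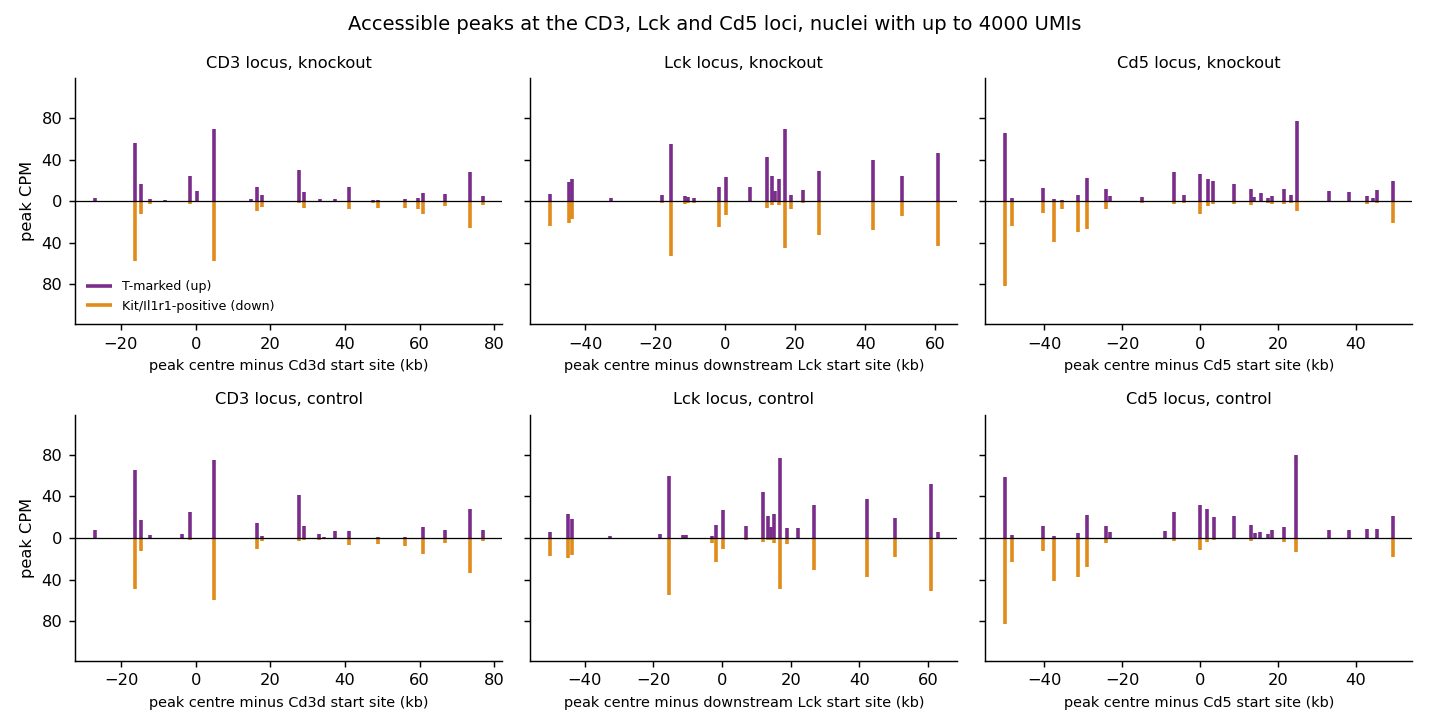
Peak CPM in nuclei with up to 4000 UMIs, T-marked drawn upwards and Kit/Il1r1-positive downwards, against the distance (kb, along the chromosome) of each peak's centre from the start site of Cd3d, of the downstream Lck transcript and of Cd5, knockout above control. One-sided upward bars stand near the CD3, Lck and Cd5 start sites, next to bars of similar size in both directions.

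Between genotypes, none of the 9 genes was past 1.5 times in either direction in T-marked nuclei. With up to 4000 UMIs, 7.91% of all measured genes were higher and 6.91% lower in the knockout by this rule, and above 4000 UMIs 8.24% and 9.69%. The differences were small and mixed in direction. They are between 1 knockout and 1 control library, so they cannot be told apart from differences between those libraries.

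Cd3d had 295 CPM (269 to 323) in knockout and 381 (360.1 to 402) in control T-marked nuclei with up to 4000 UMIs, a log2 ratio of −0.37 (−0.52 to −0.21). Above 4000 UMIs it had 255 (228 to 285) and 346 (310.4 to 384), a log2 ratio of −0.44 (−0.66 to −0.21). Cd3g followed at −0.26 (−0.42 to −0.11) and −0.35 (−0.58 to −0.13), whereas Cd3e was at −0.15 and 0.03. The 3 T-cell receptor constant genes were also below 0 with up to 4000 UMIs, Trac at −0.23, Trbc1 at −0.22 and Trbc2 at −0.33.

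Lck, in contrast, was at 0.20 (0.02 to 0.36) and 0.32 (0.06 to 0.58), and Zap70 at 0.06 and 0.14, where both intervals of Zap70 include 0. Lat was at −0.30 (−0.52 to −0.09) and −0.18 (−0.49 to 0.12), Cd5 at −0.11 (−0.26 to 0.03) and −0.33 (−0.53 to −0.12), and Cd247 at −0.13 (−0.26 to −0.00) and −0.43 (−0.62 to −0.25). Themis in Bcl11b-marked nuclei had 885 CPM in knockout and 675 in control nuclei with up to 4000 UMIs, a log2 ratio of 0.39 (0.27 to 0.51), and 718 and 604 above 4000 UMIs, 0.25 (0.09 to 0.41).

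The measured pathway genes were 3 receptor chains, 19 adaptors and enzymes, 12 negative regulators and 2 relatives. Of these, Cd4 alone was past 1.5 times in T-marked nuclei with up to 4000 UMIs. Among all measured genes 7.91% were higher and 6.91% lower by this rule. Cd4 had 845 CPM in knockout and 282 in control nuclei, a log2 ratio of 1.58. Cd4 encodes the coreceptor that brings Lck to the receptor, and it is also the gene whose control elements drive Cre here. In Kit/Il1r1-positive nuclei Cd4 had 289 and 285. Among the adaptors and enzymes, Txk followed at 0.33, and Prkcq (−0.36) and Cd2 (−0.24), an adhesion receptor, were lowest. Ptpn22, a phosphatase acting on Lck, was at 0.22, Sh2d2a at 0.15, Dgka at −0.08 and Ptpn6 at −0.25. Above 4000 UMIs, 3 of 19 adaptors and enzymes and 1 of 12 negative regulators were past 1.5 times higher, where 8.24% of all genes were. None of the pathway genes was lower, where 9.69% of all genes were. The higher ones included Cd4 (1.56) and Trat1 (0.65) of the adaptors and enzymes, and Csk (0.59), the kinase that inhibits Lck.

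**Figure D5:**
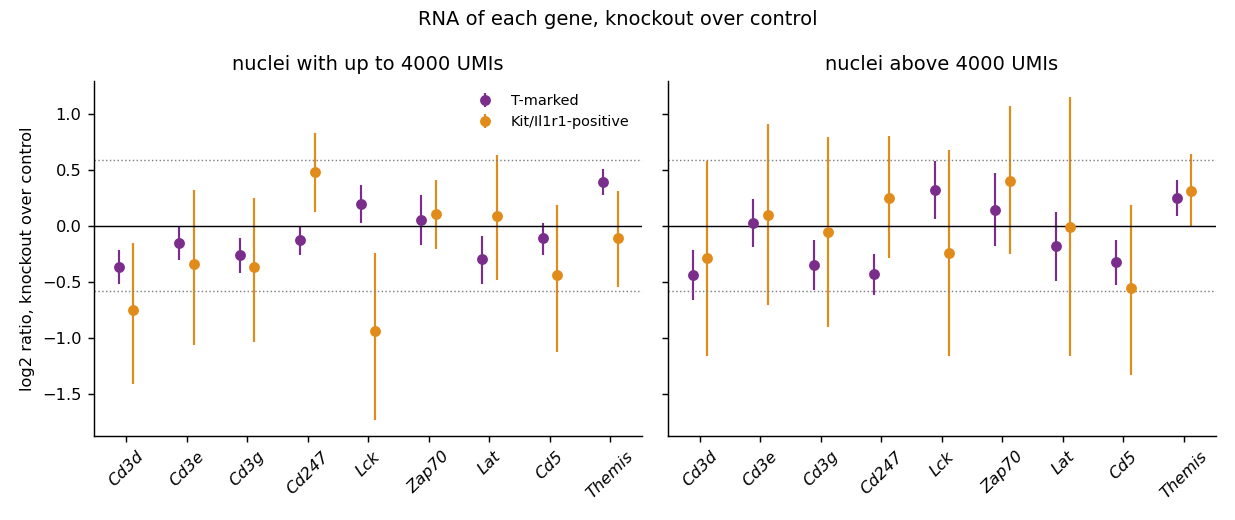
Log2 ratio of CPM, knockout over control, for the 9 genes in T-marked (purple) and Kit/Il1r1-positive (orange) nuclei, up to 4000 UMIs on the left and above 4000 on the right, Themis with classes set by Bcl11b alone; bars are 95% counting intervals and dotted lines mark 1.5 times. Purple points stay inside the dotted lines, and the orange points of Cd3d and Lck fall below them on the left.

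In Kit/Il1r1-positive nuclei with up to 4000 UMIs, Cd3d and Lck were past 1.5 times lower in the knockout, 2 of the 8 genes, where 9.29% of all genes were lower and 6.31% higher. Lck had 17.5 CPM on 21 UMIs in knockout and 34.0 on 72 UMIs in control nuclei, a log2 ratio of −0.94 (−1.74 to −0.24). Cd3d, with 30 and 90 UMIs, had 25.0 and 42.6, a log2 ratio of −0.75 (−1.41 to −0.16). Cd247 lay above 0 at 0.48 (0.12 to 0.83). Cd3d and Lck were both inside 1.5 times when nuclei with both kinds of UMI were counted in both classes, and when the classes were set with Bcl11b alone in place of Bcl11b or Themis. None of the 8 was past 1.5 times above 4000 UMIs, where 11.7% of all genes were higher and 11.8% lower.

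Accessibility at the loci was close between the genotypes. Over the 112 regions shared by both libraries, 6 of 107 measured were at least 1.5 times higher and 7 lower in knockout T-marked nuclei with up to 4000 UMIs, where 9.55% and 7.27% of all shared peaks were. Above 4000 UMIs the counts were 6 higher and 8 lower of 83, against 9.92% and 9.21%. In Kit/Il1r1-positive nuclei they were 7 and 2 of 62 (against 8.6% and 7.37%) with up to 4000 UMIs and 1 and 3 of 25 (against 10.0% and 10.8%) above. The summed log2 ratio was −0.04 (−0.09 to 0.01) in T-marked nuclei with up to 4000 UMIs. By locus it was, in the same nuclei, −0.16 (−0.28 to −0.04) at CD3 and −0.30 (−0.56 to −0.04) at Themis, and between −0.02 and 0.05 at the others.

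The Themis start-site peak had 10.6 peak CPM in knockout and 22.7 in control T-marked nuclei with up to 4000 UMIs, a log2 ratio of −1.06 (−1.72 to −0.48). Themis RNA was higher in the knockout (0.39), but in a different set of nuclei, those chosen by Bcl11b alone. Above 4000 UMIs the peak had 15.2 and 15.7, a log2 ratio of −0.01 (−0.86 to 0.90). The Cd3e start-site peak had 30.3 and 42.1 with up to 4000 UMIs, a log2 ratio of −0.44 (−0.83 to −0.08), and 32.2 and 28.2 above 4000 UMIs, 0.20 (−0.40 to 0.84). At Lck the upstream and downstream start-site peaks were at −0.06 (−0.54 to 0.41) and −0.24 (−0.69 to 0.19).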

How the data were processed

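RNA and accessibility were measured in 1 knockout and 1 control library, aiming at 5000 nuclei each. The authors deposited whole-number counts per barcode from Cell Ranger ARC 2.0.1 on mm10, per the file headers and the submitters' processing notes; filters before deposit are not given there. Of the peak counts, 90.7% (knockout) and 91.7% (control) were even, so intervals used fragments, the count divided by 2 and rounded up.

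Barcodes with fewer than 500 UMIs, fewer than 300 genes or over 10% mitochondrial UMIs were removed. No doublet caller was run. Counts were summed per library, class and depth. Log2 ratios used a pseudocount of 0.5 UMI with exact conditional intervals of 2 Poisson counts, shares used Clopper-Pearson intervals, and levels Poisson intervals, at 95%. Features with at least 20 UMIs or fragments over both sums were measured. With 1 library per genotype no test across samples was possible, and a difference is past the rule at 1.5 times. Intervals cover counting error only.

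The members and lists were chosen with earlier results of these data known. Named genes are the 9, the 2 highest and 2 lowest ratios of each pathway list, and Trac, Trbc1, Trbc2, Fyn, Syk, Lcp2 and Cd4, with some genes that the rule names not reported here; named peaks are the 3 with most counts and the 3 with the largest class ratio per locus, and, chosen after their values were seen, start-site peaks and their neighbours. Alternatives were other scalings (edgeR 4.0.16, DESeq2 1.42.0), classes, depth limits, thinning, filters, windows and overlaps. Python 3.11.15 with scipy 1.17.1 and R 4.3.3 were used, the ratio was tested on simulated data, and exons are from GENCODE vM21.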

Additional observations from a re-analysis of the deposited data

Results flagged for a closer look

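The knockout over control ratio of 3 genes pointed in opposite directions in T-marked and Kit/Il1r1-positive nuclei, 1 library per genotype. The difference was not tested across samples. Cd247, whose log2 ratio was −0.13 in T-marked and 0.48 in Kit/Il1r1-positive nuclei with up to 4000 UMIs, had a difference of −0.61 (counting interval −0.98 to −0.24), and of −0.69 (−1.24 to −0.14) above 4000 UMIs. Lck, at 0.19 and −0.96 without a pseudocount, had a difference of 1.16 (0.43 to 1.88) with up to 4000 UMIs and of 0.56 (−0.33 to 1.45) above. Lat, at −0.30 and 0.08, had a difference of −0.38 (−0.95 to 0.19) with up to 4000 UMIs. Themis, which helped to set the classes, was described with classes set by Bcl11b alone, and its difference was not computed. With up to 4000 UMIs it also pointed in opposite directions. It was at 0.39 (0.27 to 0.51) in Bcl11b-marked and −0.11 (−0.55 to 0.31) in Kit/Il1r1-positive nuclei. Above 4000 UMIs its ratios were 0.25 and 0.32.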

How the results depend on the processing

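Of 124 counts, shares and sums recomputed under an alternative, 115 stayed close to the reported value and 9 moved; no ratio past 1.5 times changed sign. Counting nuclei with both kinds of UMI in both classes gave 0 of 8 genes higher in T-marked nuclei above 4000 UMIs in either library, against 7. The shared nuclei hold most UMIs of both sums there, which draws the ratios towards 1 whatever the genes do. In Kit/Il1r1-positive nuclei with up to 4000 UMIs, the 2 genes past 1.5 times between genotypes became 0 with a limit of 2 times, with those nuclei counted in both classes, and with classes set by Bcl11b alone. Above 4000 UMIs, 0 became 2 with at least 2 marker UMIs and 3 with depth split at 6000 UMIs. The control share of higher peaks above 4000 UMIs, 43.4%, was 12.5% with at least 50 fragments, a limit at which the share over all peaks was not computed. The summed peak ratio between genotypes in T-marked nuclei with up to 4000 UMIs was −0.0896 within 10 kb. The causes of the other moves were not tested. Of 712 single-gene ratios, 607 stayed inside the counting interval of the reported one and 105 left it. TMM scaling shifted all knockout ratios between classes by −0.11 with up to 4000 UMIs, and median-of-ratios scaling the genotype ratios of Kit/Il1r1-positive nuclei above 4000 UMIs by 0.11. Levels in Kit/Il1r1-positive nuclei above 4000 UMIs rest on 14 to 67 UMIs per gene. No paired analysis was possible because each genotype has 1 library.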
